A study of Mus musculus with 6 samples.

Results

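The genes of cholesterol and fatty acid synthesis were followed in basal cell carcinoma (BCC) cells with and without Yap. They were chosen by symbol, as the SREBP system, the mevalonate and cholesterol pathway and the fatty acid pathway. All 34 chosen genes were among the 23337 genes of the deposited table: 5 of the SREBP system, 18 of the sterol arm and 11 of the fatty acid arm. The tumours had been started with tamoxifen in mice 4 weeks old, and the cells came from ear epidermis 6 weeks later. The 3 knockout libraries were from mice of genotype R26-SmoM2/+ Yapfl/fl K14CreER and the 3 wild-type libraries from R26-SmoM2/+ K14CreER mice, so both groups carried SmoM2, a constantly active form of the Hedgehog transducer Smoothened, and both had received tamoxifen. K14CreER is a tamoxifen-activated Cre recombinase driven by the keratin 14 promoter, so it acts in basal keratinocytes and their descendants and leaves other cells of the skin with Yap intact. The labels do not say whether a library came from 1 animal or from a pool, nor that the libraries came from separate animals, so each p-value measures the spread between these libraries, part of which may be technical.

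Cells make cholesterol from acetyl-CoA through mevalonate, squalene and lanosterol, and make fatty acids from the same precursor through malonyl-CoA. The transcription factors SREBP1 and SREBP2 drive the genes of both routes. The escort protein SCAP carries them from the endoplasmic reticulum to the Golgi for cleavage when sterols are low, and the INSIG proteins hold SCAP back when sterols are high. In skin, keratinocytes need cholesterol, ceramides and free fatty acids for the lipid barrier, and sebaceous glands use the same enzymes to make sebum. YAP, encoded by Yap1, is a transcriptional co-activator that binds DNA through TEAD factors.

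Values are normalized counts, that is, reads assigned to a gene divided by a size factor for the library, and the libraries held 15405490 to 25260431 assigned reads. Yap1 had 591, 773 and 1764 normalized counts in knockout libraries 1 to 3, against 5765, 6004 and 5573 in wild-type libraries 1 to 3. Every knockout library lay below every wild-type library, and knockout library 3 kept the most Yap1 transcript. The Yap1 difference was −2.63 ± 0.39 (SE) on the log2 scale, with a DESeq2 adjusted p of 1.4e-07 and a limma adjusted p of 0.517. Libraries 1 and 2 of each genotype carry label codes that begin with DM22 and library 3 of each a code that begins with DM24. The labels do not say that libraries of the same number are matched, so differences within a same-numbered pair are description. Xist, the X-inactivation transcript, had 58654 and 59594 normalized counts in the DM24 knockout and wild-type libraries and 8.62 to 15.1 in the DM22 libraries, and the Y-linked gene Ddx3y had 0 reads in the DM24 libraries. By these transcripts the DM24 mice were female and the DM22 mice male, so library 3 of each genotype came from other mice than libraries 1 and 2, and sex and whatever else the codes mark cannot be told apart. The basal keratinocyte markers (Krt5, Krt14, Krt15, Trp63, Itga6, Itgb4 and Col17a1) summed to 545004, 550496 and 567227 normalized counts in the knockout libraries and to 553803, 695051 and 485491 in the wild-type libraries. The 7 adipocyte markers summed to 1.65 to 13.9 in the knockout libraries and to 0.958 to 7.80 in the wild-type libraries, and each of the 7 averaged under 10.

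No gene of the SREBP system or of either arm passed a test between knockout and wild-type tumours. Differences are given on the scale of log2(normalized count + 1), knockout minus wild type, with limma's standard error (SE) and 95% interval, and limma's p-values were adjusted by Benjamini and Hochberg over the 13671 genes that averaged at least 10 normalized counts. All 34 lipid genes passed that filter. Limma called 0 of the 34 and 0% of all genes tested at an adjusted p under 0.05. At an unadjusted p under 0.05 it listed 3 of the 34 (8.82%), beside 5.55% of all genes, a share that was 5.57% in edgeR. EdgeR also called 0 of the 34 and 0% of all genes. DESeq2 was run in 3 ways, with genotype alone, adding the replicate number as a block, or adding the DM22 or DM24 code. It called 0 of the 34 in each, beside 0.505%, 1.24% and 2.22% of all genes in that order. The lowest adjusted p of any of the 34 genes in any of these fits and their alternatives was 0.109 (Sc5d, DESeq2 adding the code).

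**Figure D1:**
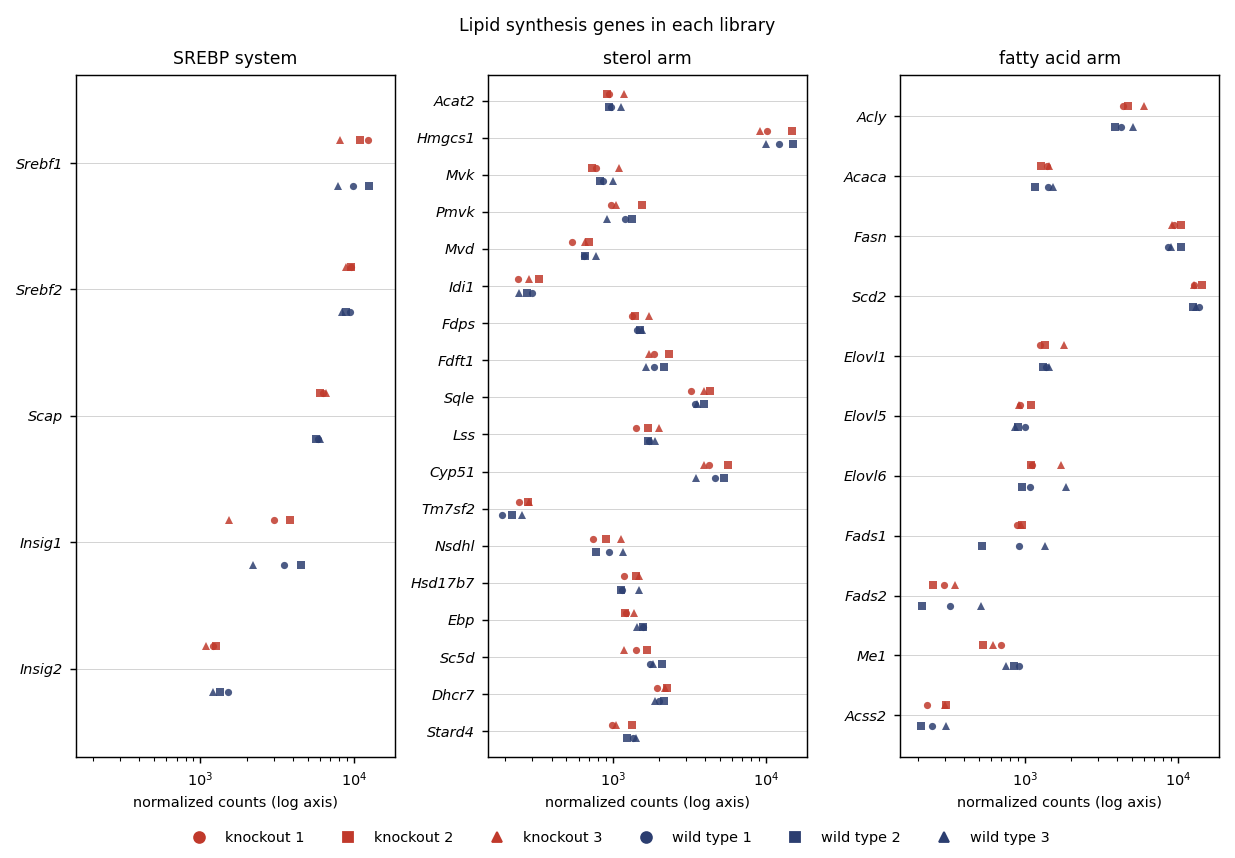
Normalized counts (log axis) of the 34 lipid synthesis genes in each of the 6 libraries, 1 panel for each gene group, with knockout libraries in red above wild-type libraries in blue and a marker shape for each replicate number. Knockout and wild-type points overlap for all except Ebp, Sc5d and Me1, whose knockout points all lie to the left of the wild-type points.

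The differences were small as well as uncalled. The median difference was 0.06 over the SREBP system, −0.02 over the sterol arm and 0.06 over the fatty acid arm, against −0.0034 over all genes tested. The median of the sizes without sign was 0.08 over the 34 genes and 0.11 over all genes tested. The 95% interval lay wholly between −0.5 and 0.5 for 19 of the 34, beside 6996 of all 13671 genes tested. The 19 were 3 of the SREBP system, 11 of the sterol arm and 5 of the fatty acid arm. The interval lay between −1 and 1 for every one of the 34 except Insig1, whose interval ran from −1.31 to 0.66. Of all 13671 genes tested, 10558 had an interval between −1 and 1. The groups did not overlap for 3 of the 34 (8.82%), against 11.0% of all genes tested. These were Ebp, Sc5d and Me1, each lower in every knockout library, and 5.87% of all genes tested were lower in that way. Since the cells were measured in bulk, fewer cells of a type and less RNA per cell cannot be told apart.

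All 5 genes of the SREBP system overlapped between the 2 genotypes. Srebf1, which encodes SREBP1, the form that favours fatty acid genes (chromosome 11, 60199089 to 60222581, minus strand, GRCm38, protein coding), had 12438, 11043 and 8120 normalized counts in knockout libraries 1 to 3, against 9848, 12577 and 7880 in wild-type libraries 1 to 3. Its difference was 0.06 ± 0.22 (SE), with an interval from −0.48 to 0.61 (limma adjusted p = 0.999), and the lowest value in each genotype was that of the DM24 library. Srebf2, which encodes SREBP2, the form that favours sterol genes (chromosome 15, 82147181 to 82205379, plus strand), had 9559, 9656 and 8898 in the knockout libraries, against 9475, 8927 and 8345 in the wild-type libraries. Its difference was 0.07 ± 0.08 (SE), with an interval from −0.12 to 0.27. Scap, the escort, had 6343, 6037 and 6583 in the knockout libraries, against 5871, 5680 and 6053 in the wild-type libraries, a difference of 0.11 ± 0.07 (SE). Its groups overlapped through knockout library 2 and wild-type library 3.

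Of the genes for the retention proteins, Insig1 had the larger spread between libraries. Insig1, itself a target of SREBP and so a readout of the pathway (chromosome 5, 28071363 to 28078662, plus strand), had 3008, 3840 and 1524 normalized counts in the knockout libraries, against 3489, 4509 and 2199 in the wild-type libraries. The knockout value was the lower in each same-numbered pair, by −0.21, −0.23 and −0.53, yet the libraries of 1 genotype differed among themselves by more than that, and the difference of −0.32 ± 0.41 (SE) had an adjusted p of 0.996 in limma and of 0.369 in blocked DESeq2, so it was not called. Leaving out each library in turn moved the Insig1 value between −0.61 and 0.06, and it was above 0 without knockout library 3. Insig2, its paralogue, had 1214, 1264 and 1082 in the knockout libraries, against 1501, 1347 and 1204 in the wild-type libraries, a difference of −0.18 ± 0.11 (SE, limma adjusted p = 0.946). The promoter of Insig1 (RefSeq, GRCm38.p6, chr5:28071162-28071461, plus strand, 250 bases before to 50 after the start) is shown because Insig1 is the gene of the system that varied most between libraries, with its CCAAT box, the letters bound by NF-Y, in capitals and written ATTGG as it lies on the other strand.
Insig1: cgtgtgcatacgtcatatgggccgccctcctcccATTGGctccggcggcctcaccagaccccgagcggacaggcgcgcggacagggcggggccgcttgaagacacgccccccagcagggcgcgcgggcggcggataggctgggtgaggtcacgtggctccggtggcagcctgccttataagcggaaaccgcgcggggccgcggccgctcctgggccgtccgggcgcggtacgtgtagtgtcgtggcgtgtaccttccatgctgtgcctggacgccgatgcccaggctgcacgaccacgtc

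Through the mevalonate steps the knockout and wild-type libraries overlapped at every gene. Hmgcs1, the synthase that makes HMG-CoA (chromosome 13, 119690379 to 119708260, plus strand), had 10243, 14910 and 9180 normalized counts in the knockout libraries, against 12270, 14984 and 10072 in the wild-type libraries. Its difference was −0.13 ± 0.22 (SE), with an interval from −0.68 to 0.41. The highest value in each genotype was that of library 2. Acat2, the thiolase that supplies acetoacetyl-CoA, and Mvk, mevalonate kinase, differed by −0.01 ± 0.13 (SE) and −0.07 ± 0.17 (SE). Acat2 lies beside a close relative, Acat3, with which it may share reads, so its counts are uncertain. Pmvk, phosphomevalonate kinase, Mvd, the decarboxylase, and Idi1, the isopentenyl isomerase, had differences of 0.03, −0.13 and 0.06. Fdps, which makes farnesyl diphosphate, averaged 1495 ± 216 in knockout and 1508 ± 60.3 in wild-type libraries (SD, n = 3 each).

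The promoter of Hmgcs1 is shown as the only one of those searched here among the 34 genes that holds the core letters TCACNCCAC of the sterol regulatory element, on which SREBP acts (RefSeq, GRCm38.p6, chr13:119690101-119690400, plus strand). Capitals mark that core, 137 bases before the start, and 4 CCAAT boxes, all on the other strand and so written ATTGG.
Hmgcs1: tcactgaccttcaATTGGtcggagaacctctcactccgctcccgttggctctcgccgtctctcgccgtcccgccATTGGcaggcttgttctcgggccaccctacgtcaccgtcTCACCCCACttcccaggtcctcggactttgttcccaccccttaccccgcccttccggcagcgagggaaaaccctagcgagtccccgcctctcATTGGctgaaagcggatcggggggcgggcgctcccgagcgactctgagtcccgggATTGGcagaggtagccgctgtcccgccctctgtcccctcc

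The squalene and lanosterol steps also overlapped between the genotypes. Sqle, squalene epoxidase, a rate-limiting step after mevalonate (chromosome 15, 59315077 to 59331192, plus strand), had 3252, 4354 and 3978 normalized counts in the knockout libraries, against 3432, 3956 and 3578 in the wild-type libraries, a difference of 0.07 ± 0.12 (SE) with an interval from −0.23 to 0.37. Fdft1, squalene synthase, and Lss, lanosterol synthase, had differences of 0.06 and −0.06. Cyp51, the lanosterol demethylase, averaged 4629 ± 929 in knockout and 4497 ± 937 in wild-type libraries (SD, n = 3 each). Of the enzymes that turn lanosterol into cholesterol, Nsdhl, Hsd17b7 and Dhcr7, which act in demethylation, keto reduction and the last reduction, had differences of −0.05, 0.12 and 0.08. Tm7sf2, a sterol reductase, had 244, 282 and 286 in the knockout libraries, against 191, 219 and 258 in the wild-type libraries. This was the largest positive difference of the 34 genes, 0.29 ± 0.15 (SE), with overlapping groups and a limma adjusted p of 0.933.

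Ebp and Sc5d, which act one after the other late in the pathway, were lower in every knockout library, without passing a test. Ebp, the sterol isomerase (chromosome X, 8185329 to 8193512, minus strand), had 1221, 1199 and 1372 normalized counts in the knockout libraries, against 1585, 1578 and 1451 in the wild-type libraries. Its difference was −0.28 ± 0.08 (SE), with an interval from −0.48 to −0.08, a limma adjusted p of 0.733 and DESeq2 adjusted p-values of 0.686 (blocked) and 0.186 (code added). The gap was narrow in library 3, at −0.08, and wider in libraries 1 and 2, at −0.38 and −0.40. Sc5d, the sterol desaturase that follows it (chromosome 9, 42251595 to 42264256, minus strand), had 1427, 1673 and 1181 in the knockout libraries, against 1752, 2088 and 1830 in the wild-type libraries. Its difference was −0.42 ± 0.14 (SE), with an interval from −0.76 to −0.07, a limma adjusted p of 0.828 and a blocked DESeq2 adjusted p of 0.146. In the same-numbered pairs it was −0.30, −0.32 and −0.63, widest in library 3. Stard4, which carries cholesterol between membranes, had 991, 1347 and 1052 in the knockout libraries, against 1349, 1250 and 1414 in the wild-type libraries, with overlap in library 2 and a difference of −0.25 ± 0.13 (SE). The promoter of Sc5d, the sterol gene with the largest difference, is printed 5′ to 3′ on the gene's strand (RefSeq, GRCm38.p6, chr9:42264251-42264550, minus strand), with its CCAAT box, written ATTGG, in capitals.
Sc5d: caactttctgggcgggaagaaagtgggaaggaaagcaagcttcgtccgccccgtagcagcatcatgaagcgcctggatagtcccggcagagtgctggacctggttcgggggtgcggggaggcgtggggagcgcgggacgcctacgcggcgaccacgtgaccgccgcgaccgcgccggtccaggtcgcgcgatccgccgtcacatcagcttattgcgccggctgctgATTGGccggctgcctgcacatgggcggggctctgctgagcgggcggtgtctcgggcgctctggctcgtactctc

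**Figure D2:**
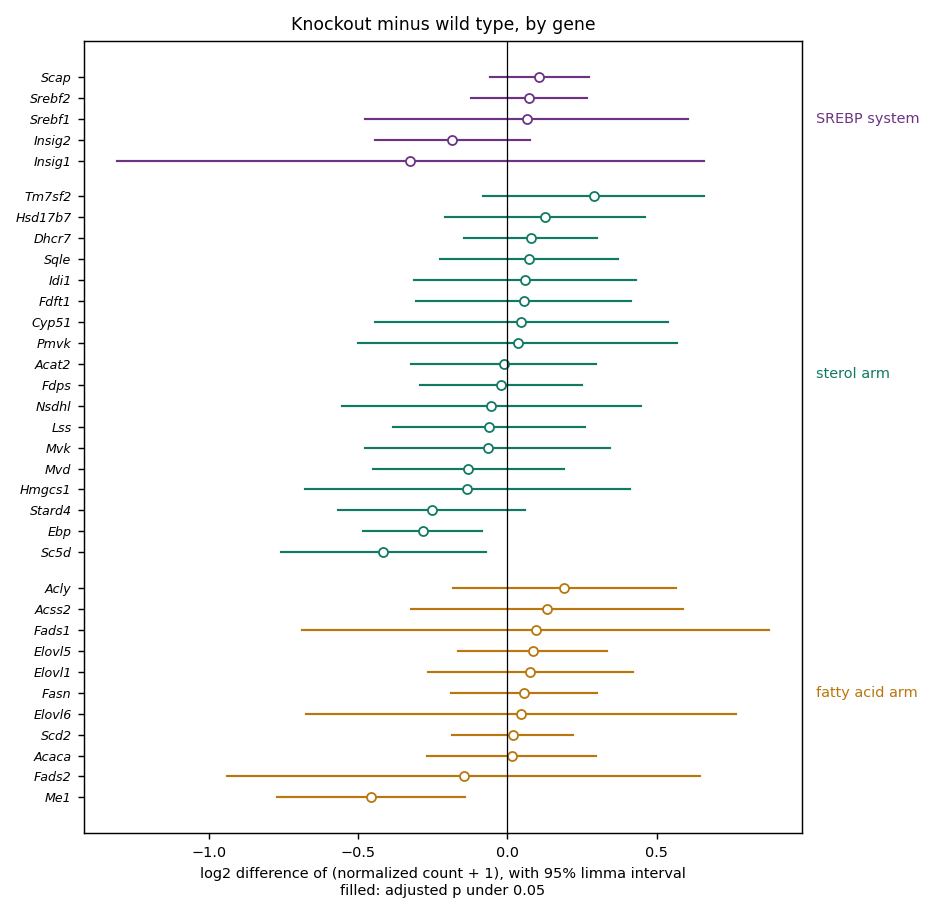
Log2 difference, knockout minus wild type, of each lipid synthesis gene (points) with its 95% limma interval (lines), grouped by pathway. No point is filled, as 0 of the 34 passed an adjusted p of 0.05, and the intervals of Ebp, Sc5d and Me1 are the ones that do not reach 0.

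The core enzymes of fatty acid synthesis overlapped between the 2 genotypes. Acly, which makes cytosolic acetyl-CoA from citrate, had 4385, 4727 and 6016 normalized counts in the knockout libraries, against 4250, 3868 and 5098 in the wild-type libraries, a difference of 0.19 ± 0.15 (SE) with overlapping groups. Each knockout value was above its same-numbered wild-type value, by 0.05, 0.29 and 0.24. Acaca, acetyl-CoA carboxylase, the committed step (chromosome 11, 84129672 to 84401651, plus strand), had 1399, 1277 and 1450 in the knockout libraries, against 1411, 1167 and 1528 in the wild-type libraries, and a difference of 0.01 ± 0.12 (SE). Fasn, fatty acid synthase (chromosome 11, 120805846 to 120824547, minus strand), had 9392, 10475 and 9209 in the knockout libraries, against 8637, 10429 and 8950 in the wild-type libraries. Its difference was 0.06 ± 0.10 (SE), with an interval from −0.19 to 0.30. Scd2, a stearoyl-CoA desaturase, averaged 13264 ± 960 in knockout and 13092 ± 516 in wild-type libraries (SD, n = 3 each), with an interval from −0.19 to 0.22.

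The elongases and desaturases, which lengthen and unsaturate the products, overlapped between the genotypes. Elovl1, Elovl5 and Elovl6 had differences of 0.08, 0.08 and 0.05. Fads2, a desaturase of polyunsaturated fatty acids, had 299, 251 and 353 normalized counts in the knockout libraries, against 324, 214 and 516 in the wild-type libraries, a difference of −0.15 ± 0.33 (SE). Fads1, its neighbour on chromosome 19 and partner in the pathway, had 886, 964 and 941 in the knockout libraries, against 923, 529 and 1353 in the wild-type libraries, a difference of 0.09 ± 0.32 (SE). For both desaturases the wild-type values lay on either side of the knockout values, lowest in wild-type library 2 and highest in wild-type library 3. The SD of Fads1 was 39.7 in knockout and 412 in wild-type libraries, and a difference in spread was not tested. Acss2, which makes acetyl-CoA from acetate, had a difference of 0.13 ± 0.19 (SE).

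Me1 had the largest difference of the 34 genes. Me1 encodes the cytosolic malic enzyme, a source of NADPH for fatty acid synthesis (chromosome 9, 86581371 to 86695953, minus strand). It had 700, 533 and 622 normalized counts in the knockout libraries, against 924, 857 and 760 in the wild-type libraries, and the highest knockout value lay below the lowest wild-type value. The difference was −0.46 ± 0.13 (SE), with an interval from −0.77 to −0.14, and it was −0.40, −0.69 and −0.29 in the same-numbered pairs. No fit called it: the adjusted p was 0.722 in limma, 0.223 in blocked DESeq2 and 0.126 in DESeq2 with the code added. Leaving out each library in turn moved it between −0.55 and −0.35. RefSeq lists 2 starts for Me1, whose windows are both shown because Me1 is the member farthest from 0 and the one whose windows hold letters of both TEAD and AP-1 factors. In the upstream window (chr9:86695865-86696164, minus strand, GRCm38.p6) capitals mark TGACTCA, an AP-1 site 6 bases before the start.
Me1 upstream start: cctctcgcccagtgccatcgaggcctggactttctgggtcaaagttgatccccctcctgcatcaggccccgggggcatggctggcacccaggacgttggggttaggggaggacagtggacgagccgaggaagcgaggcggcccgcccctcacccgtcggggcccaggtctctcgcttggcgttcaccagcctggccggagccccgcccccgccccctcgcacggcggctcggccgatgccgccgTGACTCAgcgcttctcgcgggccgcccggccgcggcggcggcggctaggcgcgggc
In the downstream window (chr9:86687228-86687527, minus strand) capitals mark a CCAAT box, written ATTGG, and CATTCC, the reverse complement of the TEAD letters GGAATG, 54 bases before that start. The deposited table does not separate reads of the 2 starts.
Me1 downstream start: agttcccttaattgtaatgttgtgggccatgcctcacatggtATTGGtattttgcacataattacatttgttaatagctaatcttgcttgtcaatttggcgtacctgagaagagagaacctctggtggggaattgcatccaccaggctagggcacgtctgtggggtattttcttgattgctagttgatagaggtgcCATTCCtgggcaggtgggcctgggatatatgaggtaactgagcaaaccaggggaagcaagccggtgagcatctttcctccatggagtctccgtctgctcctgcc

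RefSeq promoter windows of 300 bases were found for 28 of the 34 genes, and 6 motifs were searched in them on both strands. A gene with several starts counted once, and the background is the share of all 27025 genes in the table. CCAAT was in a window of 23 of the 28 genes, against 41.1% of all genes, and GGGCGG, the letters of Sp1, in 23 of the 28, against 38.2%. Of the 14 sterol genes with a window, 13 held CCAAT and 13 held GGGCGG. Of the 9 fatty acid genes with a window, 6 held CCAAT and 5 held GGGCGG. The E-box CACGTG was in 6 of the 28, against 8.09%. The TEAD letters GGAATG were in 2 of the 28, Me1 and Acss2, against 16.6%, and the AP-1 letters TGANTCA in 2 of the 28, Me1 and Dhcr7, against 8.97%. TCACNCCAC was in 1 of the 28, against 1.44%. These are matches of letters in short windows and not measured binding, and some letters of CACGTG and the sterol core can overlap with other motifs.

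Per length, the most abundant of the 34 transcripts were Hmgcs1, with 2600 normalized counts per kilobase of merged exons (mean of the 6 libraries), Scd2 with 2412 and Srebf1 with 1831. Srebf2, Cyp51 and Insig1 followed with levels of 1273, 1034 and 1001 per kilobase. The lowest were Acss2 with 26.4, Tm7sf2 with 56.0, Idi1 with 79.7 and Acaca with 80.4 per kilobase. Merged exons count every annotated isoform, which lowers the level of genes with long minor isoforms. The library kit does not mark strand, and 14 of the 34 genes share exon bases with another annotated gene, from 0.529% of the exon bases of Elovl6 to 26.7% of those of Fdps, so reads there could not be told apart.

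Among other genes of lipid metabolism, few passed a test, and only in DESeq2. With the code added it called 2 of the fatty acid oxidation list, Acadl and the kinase gene Pdk4, beside 2.22% of all genes tested. When blocked it called 1 of these, beside 1.24%, and with genotype alone 0, beside 0.505%. Out of 60 genes these counts are small and near the shares over all genes. In 5 further lists of 60 genes, all in the table and 5 of them under an older symbol, limma and edgeR called 0 genes between knockout and wild type, and 2 had an unadjusted p under 0.05 in limma (Npc2 and Acsl5), which is no larger a share than the 5.55% of all genes. Among 10 other genes of sterol and isoprenoid synthesis the median difference was 0.04, with Pdss2 at 0.13 and Tmem97 at −0.09. Among 8 genes that process or degrade SREBP and its partners the median was −0.05, with the protease gene Mbtps1 at −0.09. Among 10 genes of LXR, cholesterol export and traffic it was 0.04, with the esterifying enzyme Soat1 at 0.70 ± 1.0 (SE) and the exporter Abcg1 at 0.29 ± 0.53 (SE). Among 19 tested genes of fatty acid synthesis and activation it was −0.0084, with Elovl3 at 1.01 ± 1.66 (SE) and Hacd1, listed as Ptpla, at −0.43 ± 0.25 (SE).

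Among the 12 genes of the fatty acid oxidation list, Pdk4 included, the median difference was −0.03 and 8 lay below 0. Acadl, the long-chain acyl-CoA dehydrogenase, had 1298, 1406 and 1973 normalized counts in the knockout libraries, against 1929, 1700 and 2939 in the wild-type libraries. It was lower in each same-numbered pair, with a difference of −0.47 ± 0.25 (SE). DESeq2 called it when blocked (adjusted p = 0.0324) or with the code added (adjusted p = 0.000865). With genotype alone the adjusted p was 0.897 in DESeq2 and 0.933 in limma, neither a call. Pdk4, the kinase that shuts pyruvate dehydrogenase in fasting, had 75.8, 53.6 and 32.9 in the knockout libraries, against 224, 136 and 50.7 in the wild-type libraries. Its difference was −1.16 ± 0.59 (SE), and DESeq2 called it with the code added (adjusted p = 0.0475), not when blocked (adjusted p = 0.0875) and not with genotype alone (adjusted p = 0.618).

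Between the DM24 and DM22 libraries 1 SREBP system gene and 2 fatty acid genes passed the test. With genotype held, limma called 3 of the 34 (8.82%) between the 2 DM24 and the 4 DM22 libraries, against 6.75% of all genes tested, a share close to the background. Higher in DM24 were 2 of the 34 (2.68% of all genes) and lower 1 of the 34 (4.07%). Insig1 was lower in the DM24 libraries, at 1524 and 2199 normalized counts, against 3008, 3840, 3489 and 4509 in the DM22 libraries, a difference of −1.0 (interval from −1.39 to −0.62, limma adjusted p = 0.0289). Elovl6, which elongates palmitate to stearate, was higher, at 1735 and 1857 in the DM24 libraries, against 1114, 1099, 1080 and 962 in the DM22 libraries, a difference of 0.76 (interval from 0.55 to 0.96, limma adjusted p = 0.0142). Acly was higher, at 6016 and 5098 in the DM24 libraries, against 3868 to 4727 in the DM22 libraries, a difference of 0.37 (limma adjusted p = 0.042). For these 3 genes no DM24 value overlapped a DM22 value. The same held for genes that were not called, Srebf2, Hmgcs1 and Fdft1 among them, and the share over all genes was not counted. Leaving out any 1 knockout library, or wild-type library 3, ended all 3 limma calls. Leaving out wild-type library 1 gave 6 calls among the 34 and leaving out wild-type library 2 gave 4.

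**Figure D3:**
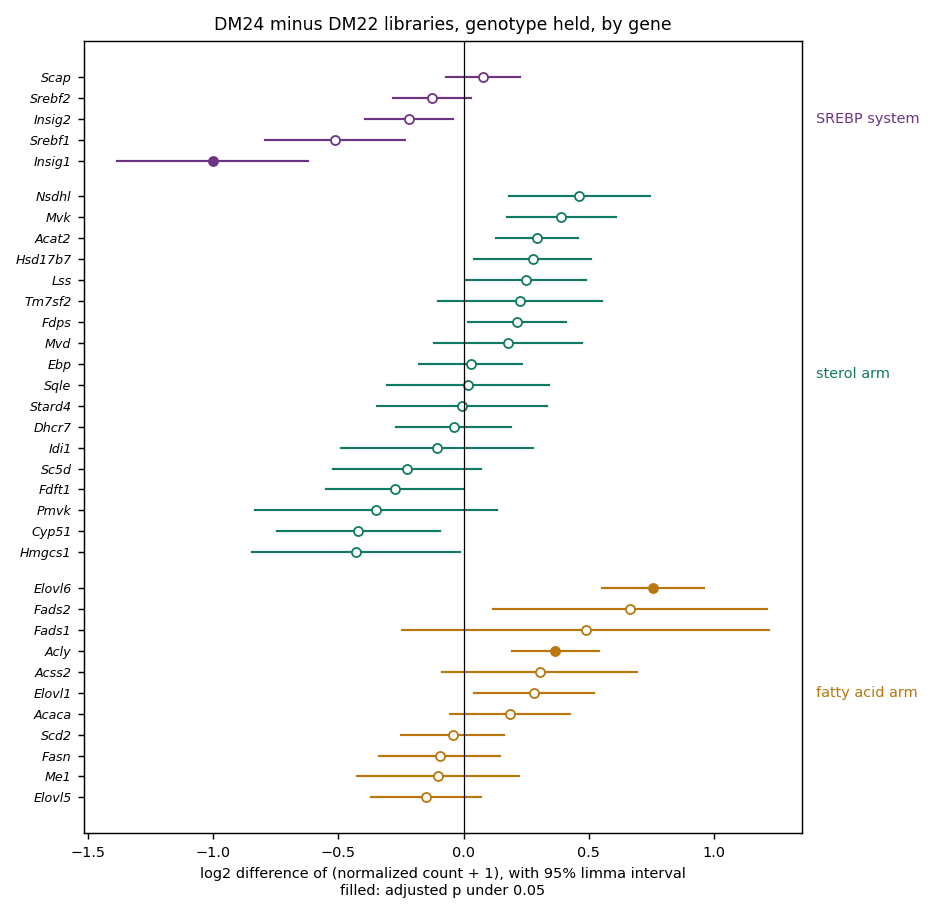
Log2 difference of each lipid synthesis gene, DM24 minus DM22 libraries with genotype held (points), with its 95% limma interval (lines). The filled points, at an adjusted p under 0.05, are Insig1 at −1.0, Elovl6 at 0.76 and Acly at 0.37.

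No gene of the sterol arm was called by limma between DM24 and DM22. Over its 18 genes 10 lay above 0 and 8 below, with a median of 0.02, as evenly as all genes tested, of which 6834 lay above 0 and 6837 below. Hmgcs1, Cyp51, Pmvk and Fdft1 had differences of −0.43, −0.42, −0.35 and −0.28 (DM24 minus DM22), while Nsdhl, Mvk, Acat2 and Hsd17b7 had differences of 0.46, 0.39, 0.29 and 0.28. Over the fatty acid arm 7 of 11 lay above 0 with a median of 0.28, against −0.00017 over all genes tested. EdgeR called 3 of the 34 against 6.39% of all genes, 2 higher (2.98% of all genes) and 1 lower (3.41%). DESeq2 called 8 of the 34 against 15.0% of all genes. Of these 5 were higher (Acly, Elovl6, Acat2, Mvk and Nsdhl), beside 6.77% of all genes, and 3 lower (Insig1, Srebf1 and Cyp51), beside 8.27%. Acat2 had 1186 and 1138 normalized counts in the DM24 knockout and wild-type libraries, against 944, 920, 979 and 950 in the DM22 libraries. Mvk had 1095 and 1009 in the DM24 libraries, against 779, 739, 870 and 824 in the DM22 libraries. For both the series did not overlap, as was also so for genes not called, such as Lss and Fdps. Nsdhl, which lies on chromosome X, had 1142 and 1174 in the DM24 libraries, against 748, 904, 944 and 778 in the DM22 libraries. Cyp51 had 3929 and 3491, against 4276, 5683, 4654 and 5346. Srebf1 had a difference of −0.51, a limma adjusted p of 0.0546 and a DESeq2 adjusted p of 0.00154.

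Several sebocyte markers, and some single markers of other cell types, also differed between the 2 series. The 10 sebocyte markers summed to 22961 and 13876 normalized counts in the DM24 knockout and wild-type libraries, against 6240 to 8772 in DM22. Krt79, which limma did not call (adjusted p = 0.0839), made up most of each sum and Fabp5 most of the rest. Limma called 4 of the 7 markers that were tested, all higher, beside 2.68% of all genes called higher. The defining gene Pparg had 111 and 83.2 in the DM24 libraries, against 16.0 to 28.5 in the DM22 libraries, and Awat1 had 55.6 and 18.2, against 0 to 6.24. The 5 suprabasal markers in the table summed to 89262 and 33929 in the DM24 libraries, against 15618 to 24368 in the DM22 libraries. Krt1 and Krt10 made up most of each sum, and Krt10 overlapped between the series. Of the 5 markers 4 lay above 0 and 1, Lor, below (−0.36). Limma called 0 of the 5, with the lowest adjusted p at 0.062 (Krt1). The 6 fibroblast markers summed to 1612 and 3237 in the DM24 libraries, against 5402 to 9427 in the DM22 libraries, and Dcn made up most of each sum. Of the 5 fibroblast markers tested, 4 lay above 0 and 1, Dcn, below, with a median of 1.30. Limma called Dcn lower (−2.10, adjusted p = 0.0248), while Col1a1 (2.31) and Col3a1 (5.68) were higher in DESeq2 (adjusted p = 0.000488 and 0.0135) and not in limma. Of the 7 basal markers 6 lay below 0 and 1, Krt14, above (0.49). Limma called Trp63 alone among them, lower in DM24 (−0.56, adjusted p = 0.0474). The basal sums overlapped, at 485491 and 567227 in the DM24 libraries, against 545004 to 695051 in the DM22 libraries. Further genes of fatty acid elongation that limma called higher in DM24 were Elovl4 (1.79, adjusted p = 0.000896), Elovl3 (4.02, adjusted p = 0.0417), Hsd17b12 (0.44, adjusted p = 0.0404) and Hacd3, listed as Ptplad1 (0.30, adjusted p = 0.0392). The part of sebaceous, suprabasal, basal or fibroblast cells in the differences of Elovl6, Acly and Insig1 was not tested. Between genotypes the sebocyte sums overlapped, at 6240, 8316 and 22961 in the knockout libraries, against 8772, 8011 and 13876 in the wild-type libraries.

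**Figure D4:**
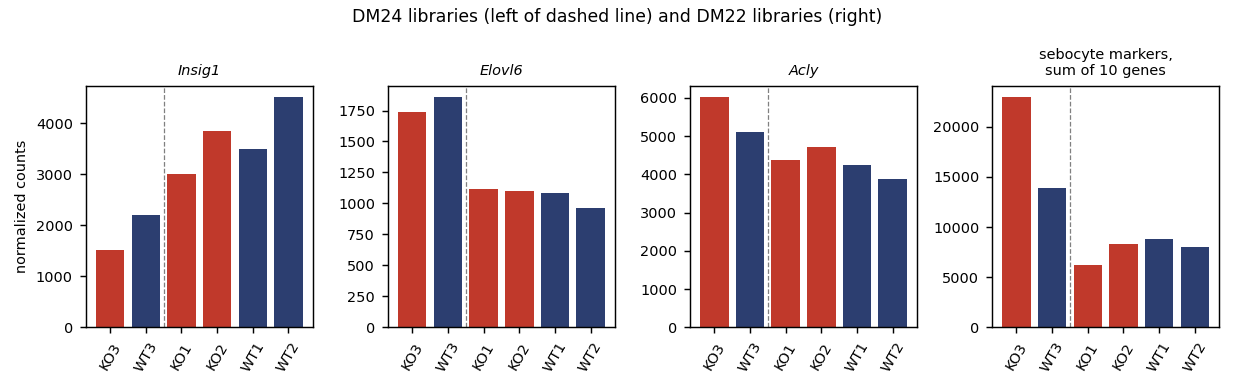
Normalized counts of Insig1, Elovl6 and Acly and the summed counts of 10 sebocyte markers (bars from 0, 1 for each library), with the DM24 libraries left of the dashed line, knockout in red and wild type in blue. The DM24 bars of Insig1 are the lowest of the 6 and those of the other panels the highest. Krt79 makes up most of each sebocyte sum and Fabp5 most of the rest.

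Whether the knockout effect itself differed between the code series was tested with an interaction term, which rests on 1 DM24 library of each genotype. The DM24 knockout library also kept more Yap1, at 1764 normalized counts, against 591 and 773 in the DM22 knockout libraries, so loss of Yap1 was unequal between the series. Limma called 0 of the 34 and 0% of all genes tested. At an unadjusted p under 0.05 it listed 1 of the 34, Elovl1 (adjusted p = 0.867), beside 5.47% of all genes.

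Most sterol genes stood higher in knockout library 2 than in knockout library 1, while in wild type the split was close to that of all genes. In the knockout, library 2 was above library 1 for 15 of the 18 sterol genes, with a median difference of 0.27, against 52.1% of all genes tested with a median of 0.0073. The largest were Pmvk at 0.67, Hmgcs1 at 0.54, Idi1 at 0.44 and Stard4 at 0.44. In wild type, library 2 was above library 1 for 10 of the 18, with a median of 0.04, against 51.0% of all genes. In both genotypes at once it was above for 10 of the 18 sterol genes, 1 of the 11 fatty acid genes and 25.0% of all genes tested. The 10 included Hmgcs1, Sqle, Fdft1, Cyp51 and Dhcr7. Insig1 also stood higher in library 2 in both genotypes, by 0.35 in knockout and 0.37 in wild type. The fatty acid arm lay the other way in wild type, where Fasn was the 1 gene of 11 that was higher in library 2. These are differences between single libraries and have no test.

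**Figure D5:**
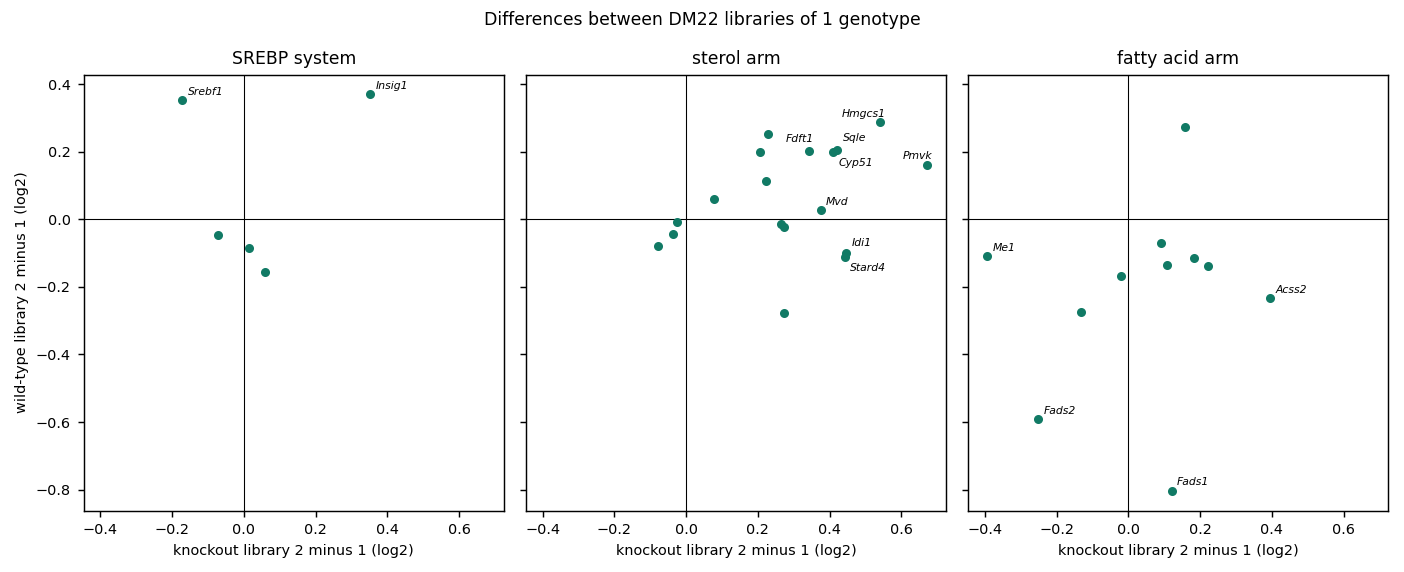
Log2 difference between library 2 and library 1 in knockout (horizontal) and in wild type (vertical), 1 point for each gene and 1 panel for each group, both libraries of the DM22 series. Sterol genes crowd to the right of 0, with 15 of 18 above 0 in knockout, and 10 of 11 fatty acid genes lie below 0 in wild type.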

How the data were processed

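RNA of BCC cells was sequenced in 3 knockout and 3 wild-type libraries (RNeasy Plus Mini and TruSeq RNA v2 kits, per the labels' protocols). STAR 2.5, DESeq2 1.18.1 and the mm10 build are named in the submitters' processing notes. The counting tool, annotation and strand setting are not given in the sources used here. The deposited signal values are gene counts divided by a size factor for each library. Whole reads were recovered by multiplying back, and 100% of values were whole within 0.001.

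Limma 3.58.1 (trend and robust options) was run in R 4.3.3 on log2(normalized count + 1), over genes with a mean of at least 10, with no covariate. A second fit compared DM24 with DM22 with genotype held. EdgeR 4.0.16 (quasi-likelihood) and DESeq2 1.42.0 on the recovered reads, a replicate block, a code series term, other pseudocounts, filters and scaling, and leaving out each library were alternatives. The interaction test was added after seeing the data. Deviations from the group means correlated at 0.333, 0.327 and 0.694 in same-numbered libraries. Since each was over 0.1, differences of same-numbered libraries are given as description. The replicate block was fitted as an alternative only, as the labels do not say that the numbers mark matched animals. Knockout 1 with wild type 2 (0.505) and knockout 2 with wild type 1 (0.26) correlated as well, and pairs across the code series at −0.632 to −0.383, so these values do not separate number pairs from the code series. Per-library values were given for members called by any fit, the 3 largest differences in each gene group and 7 chosen genes of the pathways. The fits were tested on simulated data. The genes and lists were chosen with earlier results of these data known. The floor of 3 reads was 2.47 to 3.90 normalized counts and covers counting error only. The value of 1 gene of the related lists is not reported here.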

Additional observations from a re-analysis of the deposited data

How the results depend on the processing

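Between knockout and wild type, 0 of the 34 genes were called in the main setting and in each of the 20 others. The count over all genes, 0 with limma, was 69 with DESeq2, 303 with DESeq2 and the code series, 2 with the DM22 libraries alone, and 0 to 1 with each library left out. With the replicate block, DESeq2 called 169 genes and limma and edgeR 0, and the block changed the call of no lipid synthesis gene. The median differences ran from −0.10 to 0.12 in the SREBP system, −0.06 to 0.08 in the sterol arm and −0.01 to 0.11 in the fatty acid arm. Of the 34 genes 14 kept their sign in every setting. The sign turned for Acat2 with quantile normalization (0.0047), for Fads1 with edgeR (−0.0028) and DESeq2 (−0.0031), and with the DM22 libraries alone for Pmvk (−0.048), Idi1 (−0.017), Cyp51 (−0.017), Elovl1 (−0.047) and Fads2 (0.054). The causes were not tested.

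With 1 library left out the sign turned for 20 genes. Their ranges were −0.10 to 0.24 for Srebf1, −0.61 to 0.061 for Insig1, −0.13 to 0.067 for Acat2, −0.34 to 0.0097 for Hmgcs1, −0.24 to 0.041 for Mvk, −0.17 to 0.16 for Pmvk, −0.051 to 0.17 for Idi1, −0.14 to 0.055 for Fdps, −0.075 to 0.15 for Fdft1 and −0.021 to 0.19 for Sqle. They were −0.19 to 0.065 for Lss, −0.13 to 0.18 for Cyp51, −0.21 to 0.10 for Nsdhl, −0.10 to 0.10 for Acaca, −0.0011 to 0.14 for Fasn, −0.042 to 0.049 for Scd2, −0.079 to 0.18 for Elovl1, −0.17 to 0.33 for Elovl6, −0.26 to 0.41 for Fads1 and −0.46 to 0.18 for Fads2.

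Between DM24 and DM22, limma called 923 genes and DESeq2 2056, with 39 to 1493 when each library was left out. Of the 34 genes limma called 3, quantile normalization 5 and DESeq2 8, with 0 to 6 when each library was left out. The differences of Insig1 (−1.16 to −0.85), Elovl6 (0.65 to 0.86) and Acly (0.33 to 0.40) kept their direction. With so few libraries in a group, true changes can go uncalled in either comparison. Between knockout and wild type even Yap1, at −2.63, was not called by limma (adjusted p = 0.517) or edgeR (adjusted p = 0.670). A lack of calls therefore does not show that a gene was unchanged.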
